A study of Homo sapiens with 21 samples.

Results

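The HOXD cluster comprises 9 of the 57820 genes in the count table: HOXD13, HOXD12, HOXD11, HOXD10, HOXD9, HOXD8, HOXD4, HOXD3 and HOXD1. They were chosen by name and position, with no measured value in the rule but with earlier results of these data known. All 9 passed the minimum of 1 count per library on average that left 30549 genes for testing. RNA was sequenced from A673 cells, 1 established Ewing sarcoma line, in 21 libraries forming 7 groups of 3 replicate knockdown and rescue experiments. Every group carried a retroviral short hairpin RNA and a second retrovirus, and all cells were selected with puromycin and hygromycin. In iLuc the hairpin targeted luciferase, so that the endogenous EWS/FLI fusion was kept, and in iEF it targeted the 3′ UTR of EWS/FLI. Both iLuc and iEF received the empty vector. The other 5 groups had the iEF hairpin and a 3xFLAG-tagged cDNA driven from the retroviral vector: full-length EWS/FLI (WT-EF), EWS/FLI without its EWS part (del22), full-length EWS/FLI with alanine for tyrosine in the repeats of the N-terminal part of EWS only (DAF), EWS/FLI with a large internal deletion in EWS (mut9), and mut9 with alanine for every repeat tyrosine it still has (DAF-mut9). The rescued groups therefore express their proteins from a vector promoter in the presence of the hairpin, in a line that represents 1 tumour.

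HOX genes encode homeodomain transcription factors that give cells of the embryo their position along the body and limb axes. Within a cluster, the genes lie on 1 strand in an order that matches where they act: low-numbered genes such as HOXD1 and HOXD3 act towards the head, and high-numbered genes such as HOXD13 act towards the tail and in the digits. EWS/FLI joins the low-complexity, tyrosine-rich start of EWS to the ETS-type DNA-binding domain of FLI1, which binds the core motif GGAA and, in Ewing sarcoma, runs of repeated GGAA.

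All 9 genes lie on the plus strand of chromosome 2 and, in GRCh37, run from HOXD13 (chr2:176957449-176960672) through HOXD12 (chr2:176964523-176967217), HOXD11 (chr2:176968944-176974482), HOXD10 (chr2:176973518-176984665), HOXD9 (chr2:176987447-176989665) and HOXD8 (chr2:176994422-176997423). HOXD3 (chr2:177001340-177037830) follows, with HOXD4 (chr2:177016278-177017954) inside its span, and HOXD1 (chr2:177053396-177055635) closes the cluster. Exons of HOXD10 and HOXD11 share 452 bases on the same strand, and a read lying wholly within those bases is counted for neither gene. Exons of the opposite-strand genes HOXD-AS2 and HAGLR share 642 bases with HOXD8 (HOXD-AS2), 379 and 138 with HOXD3 (HOXD-AS2 and HAGLR), and 145 with HOXD1 (HAGLR). HOXD1 shares 989 more with an opposite-strand gene outside the count table. The strand setting of the counting is not given in the sources used here, so reads from these shared bases cannot be assigned with certainty.

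Promoters of 4 members are printed. HOXD8 had the highest mean level per kilobase of exon in iLuc, with libraries that overlapped those of HOXD10. HOXD13 was the 1 member called between mut9 and WT-EF, and HOXD1 was the member that moved the other way. HOXD4 was picked by sequence, for the lowest CG count among the promoters. Whether promoter sequence goes with level was not tested. Each runs 5′ to 3′ on the plus strand of GRCh38.p14 in RefSeq, from 250 bases before to 50 bases after the gene start, with GGAA or its reverse complement TTCC in capitals. The positions are chr2:176129455-176129754 for HOXD8, chr2:176092471-176092770 for HOXD13, chr2:176151300-176151599 for HOXD4 and chr2:176188418-176188717 for HOXD1.
HOXD8: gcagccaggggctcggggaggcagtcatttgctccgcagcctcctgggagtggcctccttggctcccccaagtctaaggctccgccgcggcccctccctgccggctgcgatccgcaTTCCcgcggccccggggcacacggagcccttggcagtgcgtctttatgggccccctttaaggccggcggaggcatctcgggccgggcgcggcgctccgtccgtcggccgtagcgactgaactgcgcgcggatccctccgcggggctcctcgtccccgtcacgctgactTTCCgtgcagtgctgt
HOXD13: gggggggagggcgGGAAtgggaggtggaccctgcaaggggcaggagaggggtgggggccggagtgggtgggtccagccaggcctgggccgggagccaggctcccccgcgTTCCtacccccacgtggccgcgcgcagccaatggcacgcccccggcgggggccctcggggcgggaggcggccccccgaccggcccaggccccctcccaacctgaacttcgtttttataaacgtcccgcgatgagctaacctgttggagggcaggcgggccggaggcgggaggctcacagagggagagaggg
HOXD4: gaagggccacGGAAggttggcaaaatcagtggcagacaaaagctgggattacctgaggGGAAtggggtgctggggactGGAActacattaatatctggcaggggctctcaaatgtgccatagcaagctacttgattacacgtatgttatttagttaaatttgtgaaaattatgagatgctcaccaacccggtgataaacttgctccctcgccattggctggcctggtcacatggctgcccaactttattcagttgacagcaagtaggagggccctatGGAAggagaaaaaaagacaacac
HOXD1: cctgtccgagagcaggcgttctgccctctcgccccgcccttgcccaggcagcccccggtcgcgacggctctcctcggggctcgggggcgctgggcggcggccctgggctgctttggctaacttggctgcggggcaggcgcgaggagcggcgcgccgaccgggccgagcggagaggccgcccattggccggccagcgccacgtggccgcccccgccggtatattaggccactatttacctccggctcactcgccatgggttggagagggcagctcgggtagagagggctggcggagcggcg

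A promoter was matched for 8 of the 9 members, all but HOXD9. Counted on both strands, GGAA occurred 4 times in the HOXD4 promoter, 3 times in that of HOXD3, 2 times each in those of HOXD8, HOXD10, HOXD12 and HOXD13, and 0 times in those of HOXD1 and HOXD11. Of 35116 RefSeq promoters of the same length, 95.5% hold GGAA, with a median of 3. The doubled GGAAGGAA, which contains GGAA, was in 0 of the 8 and in 3.67% of all promoters, and CCGGAA, which also contains it, was in 0 of the 8 and in 17.2%. The HOXD4 promoter held 4 CG dinucleotides against 36 in the HOXD1 promoter and 34 in the HOXD8 promoter. These matches describe letters in a 300-base window and carry no measurement of binding. Each window sits at the RefSeq start of a gene. For HOXD3, HOXD10 and HOXD11 that start lies inside the GRCh37 span given above, so the start of the span was not searched.

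Library totals ran from 32897083 to 46210348 counts, of which 2460 to 10536 per library fell in the 9 genes. Levels are given in CPM (counts per 1000000 counts of the library, with TMM scaling), where 1 CPM stood for 31.96 to 45.25 counts. FLI1, whose reads can come from the endogenous fusion and from the FLI part of a cDNA, had 70.3 ± 16.2 CPM in iLuc and 20.6 ± 0.553 in iEF (mean ± SD, n = 3). It was higher than iEF in mut9 (30.7 ± 2.52), DAF (37.02 ± 2.43), DAF-mut9 (36.3 ± 1.49) and del22 (49.5 ± 11.01), while WT-EF at 24.5 ± 2.39 missed the threshold (adjusted p-value 0.196, edgeR), so FLI1 counts do not check the WT-EF label. The endogenous transcript carries the 3′ UTR that the hairpin targets, and a cDNA may not. FLI1 reads per transcript may therefore differ between iLuc and the rescued groups. The order of FLI1 levels differs from that of the HOXD genes, and the part of construct level in the results was not tested. CD99, the surface marker of Ewing sarcoma, had group means of 0.0174 to 0.129 CPM. It lies in a region that the X and Y chromosomes share, where reads can match both copies, so these counts do not show whether it was expressed, whereas NKX2-2 (0.978 to 8.98), NR0B1 (7.65 to 52.4) and PRKCB (35.3 to 486) were present. The leukocyte markers summed to 10.6 CPM in iEF and to 1.21 to 2.23 in the other groups, and iEF replicate 3 carried 25.05 CPM of ITGAM. PTPRC stood at 0.441 to 0.775 CPM and CD3E at no more than 0.0183, and group sums ran from 0.101 to 0.925 CPM for endothelial and from 0.145 to 0.597 for epithelial markers. Without iEF replicate 3, the count of HOXD genes called stayed at 8 in iLuc and at 8 in WT-EF, each against iEF, and fell from 8 to 5 in mut9.

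Per kilobase of exon, HOXD8 (26.1 ± 8.18 CPM per kb, mean ± SD, n = 3) and HOXD10 (18.8 ± 4.17) led in iLuc, followed by HOXD13 (14.6 ± 2.08) and HOXD9 (11.6 ± 3.32), and each neighbour in this order overlapped the next. HOXD11 (5.09 ± 1.27) and HOXD3 (4.89 ± 1.31) also overlapped each other and lay below those 4. HOXD4 (1.70 ± 0.0603), HOXD12 (0.123 ± 0.0536) and HOXD1 (0.0330 ± 0.0232) were the lowest, without overlap. In iEF the order changed: HOXD10 led at 11.5 ± 2.11 CPM per kb, HOXD13 (6.67 ± 0.973) and HOXD8 (6.02 ± 1.06) followed with overlapping libraries, HOXD9 (2.77 ± 0.716) overlapped HOXD11 (2.61 ± 0.441), and HOXD1 (0.307 ± 0.107) overlapped HOXD4 (0.402 ± 0.0597). HOXD10 was first in every group other than iLuc. Divided by the longest transcript or the longest coding sequence instead, HOXD3 stood above HOXD11 in iLuc. By the longest transcript, HOXD10 was about level with HOXD8 there. Over both of these lengths, the iLuc level of a gene moved by at least its SD in 11 checks and by less in 7. The exon lengths of HOXD10 and HOXD11 include the 452 bases they share.

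**Figure D1:**
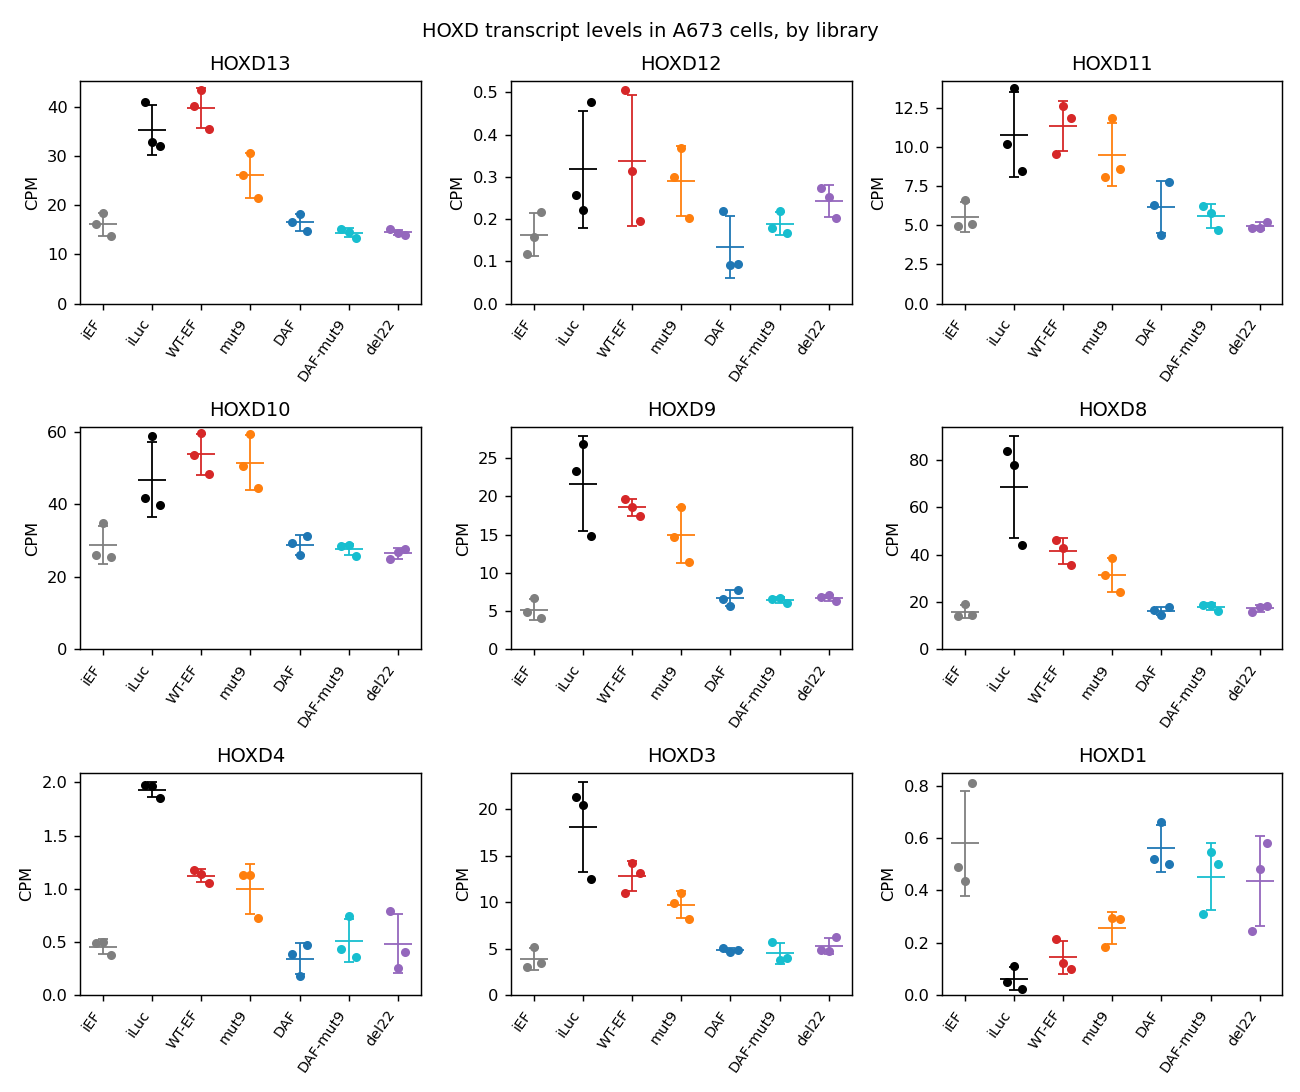
CPM of the 9 HOXD genes in cluster order (1 panel each, y axis in TMM-scaled CPM) in the 7 groups on the x axis. Points are the 3 libraries of a group, and bars are the mean ± SD. HOXD8, HOXD9, HOXD10, HOXD11, HOXD13, HOXD3 and HOXD4 stand higher in iLuc and WT-EF than in iEF, whereas HOXD1 stands lower.

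The first comparison asked how the members differ with and without EWS/FLI in this line, by setting iLuc against iEF. Of the 9 genes, 7 were higher in iLuc (HOXD3, HOXD4, HOXD8, HOXD9, HOXD10, HOXD11 and HOXD13), 1 was lower (HOXD1), and HOXD12 did not pass the adjusted p-value threshold of 0.05 in edgeR's quasi-likelihood test. Over all 30549 genes 41.1% were called, 18.7% higher and 22.4% lower. The 7 members higher are a larger share of the cluster than that of all genes, and the 1 lower a smaller share. In bulk RNA, fewer cells expressing a gene and less RNA per cell cannot be told apart. The median log2 fold change of the 9 members was 1.14 and that of all genes tested 0.01.

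HOXD8, a central member, had 83.9, 77.97 and 44.05 CPM in the iLuc replicates and 14.003, 19.1 and 14.5 in iEF. The iLuc libraries all lay above the iEF libraries, although replicate 3 of iLuc was well below its 2 companions. The log2 fold change was 2.10 ± 0.18 (SE, n = 3, adjusted p-value 8.37e-09, edgeR). HOXD9, the first of the posterior members, had 23.3, 26.9 and 14.8 CPM in iLuc and 4.83, 6.66 and 4.05 in iEF. Its libraries did not overlap, and the log2 change was 2.06 ± 0.19 (adjusted p-value 2.10e-08, edgeR). HOXD3, known for its part in patterning the neck and for an effect on cell adhesion, had 21.3, 20.5 and 12.5 CPM in iLuc and 2.99, 5.16 and 3.51 in iEF. It had the largest positive change of the cluster, 2.22 ± 0.23 (adjusted p-value 8.87e-08, edgeR), and HOXD4, which patterns the hindbrain and neck, changed by 2.09 ± 0.34 from lower levels of 1.98, 1.97 and 1.85 against 0.490, 0.501 and 0.378 CPM.

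HOXD13, HOXD11 and HOXD10 had smaller log2 changes than HOXD3, HOXD4, HOXD8 and HOXD9, and the difference was not tested. HOXD13, the gene mutated in synpolydactyly, had 41.1, 32.8 and 32.05 CPM in iLuc and 16.2, 18.4 and 13.7 in iEF, and its log2 change was 1.14 ± 0.12 (adjusted p-value 8.87e-08, edgeR). HOXD11, which together with its paralogues shapes the forearm and kidney, had 10.1, 13.7 and 8.47 against 4.92, 6.60 and 5.05 CPM and changed by 0.96 ± 0.21. HOXD10, a gene of hindlimb motor neurons, had 41.8, 58.7 and 39.8 against 25.95, 34.7 and 25.4 CPM and changed by 0.70 ± 0.13, the smallest of the 7. The libraries of the 2 groups did not overlap for any of these 3 genes. HOXD12 was barely expressed, with 10, 10 and 19 counts in iLuc and 5, 5 and 8 in iEF, and its log2 fold change of 0.96 ± 0.47 had an adjusted p-value of 0.108 (edgeR). Its 95% interval of -0.01 to 1.93 includes values close to those of its neighbours, so a change of their size could have been missed at this depth.

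HOXD1, the anterior end of the cluster, moved the other way on very few counts. The iLuc libraries held 2, 5 and 1 counts and the iEF libraries 21, 14 and 30, or 0.0514, 0.111 and 0.0251 against 0.490, 0.438 and 0.811 CPM, without overlap. The fitted log2 fold change of -3.13 ± 0.49 (95% interval -4.15 to -2.12, adjusted p-value 2.20e-05, edgeR) rests on those counts. Of the 1886 exon bases of HOXD1, 1134 are shared with opposite-strand genes. HAGLR, 1 of these genes, was also lower in iLuc than in iEF (-0.81 ± 0.14). Against iEF it was not called in WT-EF (-0.22 ± 0.14) or mut9 (0.23 ± 0.14). Whether reads from the opposite strand entered the HOXD1 counts was not tested.

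Rescue with WT-EF, the test of whether the cDNA restores what the hairpin removed, gave 7 members higher and 1 lower than in iEF, against 28.3% of all genes called (11.4% higher, 16.9% lower). The 8 genes were those called in iLuc, and both comparisons share the iEF libraries. HOXD9 had 19.7, 18.6 and 17.4 CPM in WT-EF and the largest positive log2 fold change, 1.86 ± 0.19 (adjusted p-value 2.44e-07, edgeR). HOXD3 had 11.03, 14.3 and 13.1 CPM and changed by 1.73 ± 0.23, and HOXD8 had 46.4, 42.9 and 35.4 CPM and changed by 1.39 ± 0.18. All 3 genes lay above every iEF library. HOXD13 had 40.2, 43.5 and 35.6 CPM and changed by 1.31 ± 0.12, HOXD10 had 53.5, 59.5 and 48.3 and changed by 0.91 ± 0.13. HOXD11 had 9.56, 12.6 and 11.8 CPM (1.04 ± 0.21) and HOXD4 1.18, 1.14 and 1.06 (1.30 ± 0.35). HOXD1 fell to 0.216, 0.121 and 0.0982 CPM (-1.95 ± 0.43, adjusted p-value 0.00141, edgeR). HOXD12 differed by 1.03 ± 0.46 with an adjusted p-value of 0.107 (edgeR). The median over the 9 members was 1.30 and over all genes -0.0025.

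**Figure D2:**
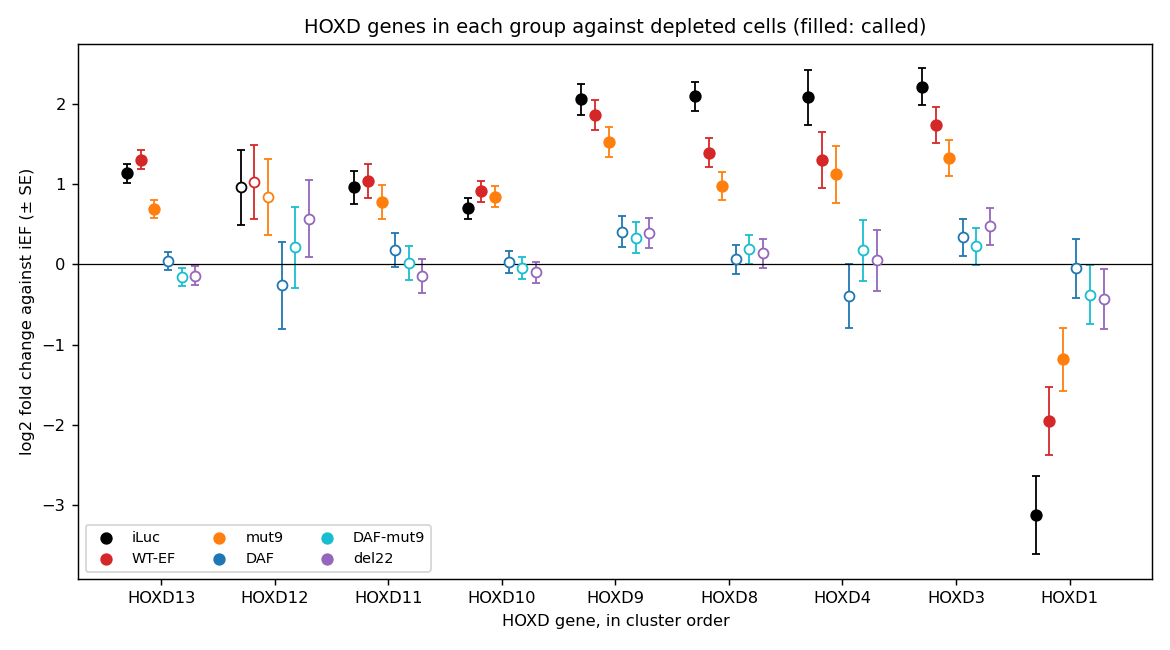
Log2 fold change of each HOXD gene (x axis, cluster order) in each of the other 6 groups against iEF, with its standard error. Filled points passed an adjusted p-value of 0.05 in edgeR. The iLuc, WT-EF and mut9 points are filled for all members but HOXD12, and none of the del22, DAF and DAF-mut9 points is filled.

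Set directly against iLuc, WT-EF differed for 1 of 9 members, against 18.3% of all genes (8.52% lower). That member was HOXD8, at -0.71 ± 0.18 on the log2 scale (adjusted p-value 0.00667, edgeR). Its WT-EF libraries reached 46.4 CPM and the lowest iLuc library, replicate 3, 44.05, so the groups overlapped. Without iLuc replicate 1 the change was -0.50 (adjusted p-value 0.0852, edgeR) and the call was lost. DESeq2 and a fit of only these groups each called 2 members, adding HOXD4, and a minimum of 2-fold left 0. In percent of the same-numbered iLuc library, WT-EF held 58.1 ± 1.31% for HOXD4, 63.6 ± 14.6% for HOXD8 and 75.5 ± 27.1% for HOXD3 (mean ± SD, n = 3). The posterior members stood at 90.6 ± 24.9% for HOXD9, 117 ± 13.9% for HOXD10, 109 ± 26.9% for HOXD11 and 114 ± 17.5% for HOXD13. HOXD4 (-0.78 ± 0.31, adjusted p-value 0.0898) and HOXD3 (-0.48 ± 0.21, 0.132) missed the threshold in edgeR, which does not show that they were equal: the 95% intervals were -1.43 to -0.14 and -0.93 to -0.04.

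With the internal deletion mut9, 8 of the 9 members were called against iEF, 7 higher and HOXD1 lower, where 14.6% of all genes were called (6.22% higher, 8.33% lower). HOXD9 had 14.7, 18.7 and 11.4 CPM in mut9 (1.53 ± 0.19, adjusted p-value 7.97e-06, edgeR), HOXD3 9.94, 11.05 and 8.17 (1.33 ± 0.23) and HOXD8 31.5, 38.4 and 24.4 (0.98 ± 0.18). HOXD10 had 50.6, 59.4 and 44.3 CPM (0.85 ± 0.13) and HOXD13 26.2, 30.5 and 21.4 (0.69 ± 0.12). The libraries of these 5 genes lay above every iEF library. HOXD11 (0.78 ± 0.21, adjusted p-value 0.0142), HOXD4 (1.12 ± 0.35, 0.0364) and HOXD1 (-1.18 ± 0.40, 0.0491) passed by less. Their mut9 libraries had 8.07, 11.8 and 8.61 CPM for HOXD11, 1.13, 1.13 and 0.727 for HOXD4 and 0.185, 0.295 and 0.291 for HOXD1. These libraries did not overlap those of iEF either. HOXD12 differed by 0.84 ± 0.47 (adjusted p-value 0.288, edgeR). Without the replicate set as a block, HOXD1 missed the threshold (adjusted p-value 0.0642, edgeR). HOXD11, HOXD4 and HOXD1 lost their calls without iEF replicate 1, where the count fell to 5, and a count of 5 was also reached without iEF replicate 3 and without mut9 replicate 2. In percent of iLuc, mut9 held 47.4 ± 9.07% for HOXD8, 51.3 ± 10.5% for HOXD4, 55.3 ± 9.42% for HOXD3 and 111 ± 9.94% for HOXD10.

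Between mut9 and WT-EF, 1 of 9 members was called, against 6.15% of all genes (1.2% lower). HOXD13 was lower in every mut9 library than in every WT-EF library, at -0.62 ± 0.12 on the log2 scale (adjusted p-value 0.00212, edgeR), and stayed called without each of the 6 libraries in turn. HOXD8 (-0.41 ± 0.18, adjusted p-value 0.205) missed the threshold, and HOXD10 (-0.07 ± 0.13) had a 95% interval of -0.34 to 0.21. The count of members called was 4 in a fit of only these groups (adding HOXD9, HOXD8 and HOXD3), 2 with no low-count filter (adding HOXD8), and 0 with a minimum of 2-fold. Whether HOXD13 differed from HOXD10 in this respect was not tested.

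**Figure D3:**
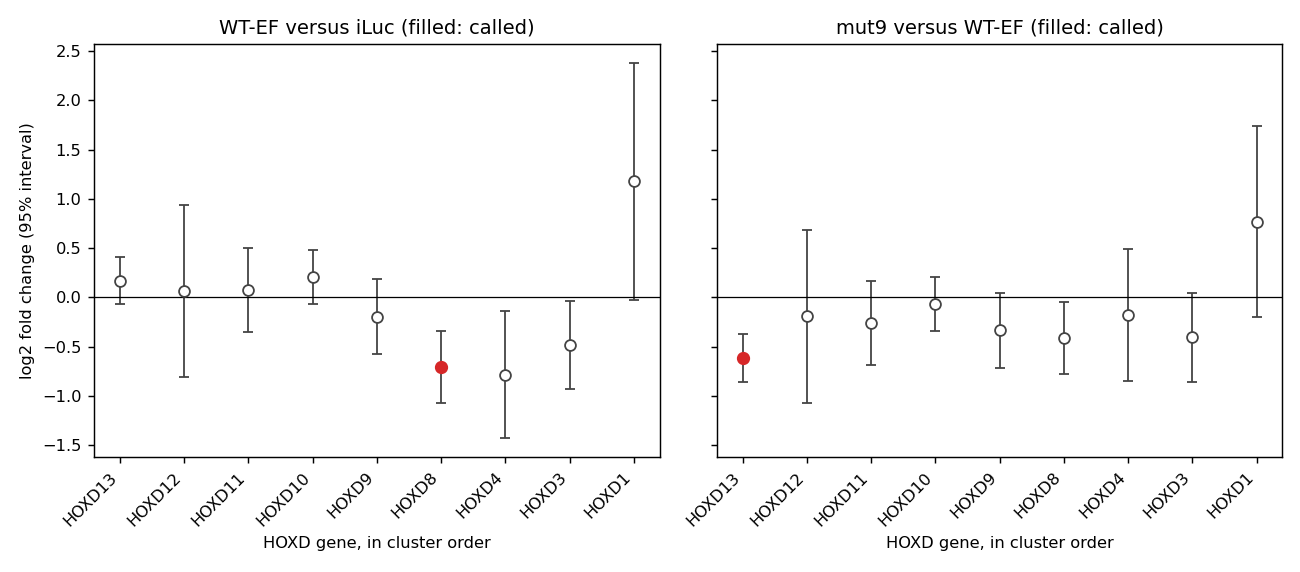
Log2 fold change of the 9 HOXD genes in WT-EF against iLuc and in mut9 against WT-EF, with 95% intervals from edgeR. HOXD8 is the called gene of the first comparison and HOXD13 of the second.

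With del22, DAF and DAF-mut9 no member was told apart from its iEF level. Against iEF, 0 of 9 members were called in del22 (background 2.67%), DAF (7.42%) and DAF-mut9 (3.4%) by edgeR, and likewise 0 by DESeq2 and by limma. With shares this small, 0 of 9 is near what all genes give and says little about the members. At an unadjusted p-value under 0.05 edgeR gave 1 member in del22 (HOXD3), 1 in DAF (HOXD9) and 0 in DAF-mut9, where 14%, 19.2% and 14.9% of all genes passed. HOXD13 had 15.1, 14.4 and 13.99 CPM in del22, 16.6, 18.2 and 14.8 in DAF and 15.2, 14.6 and 13.4 in DAF-mut9. HOXD8 had 15.7, 17.7 and 18.4 CPM in del22, 16.6, 14.5 and 17.9 in DAF and 18.9, 18.9 and 16.2 in DAF-mut9. For both genes all 9 of these libraries lay below every WT-EF library. They lay within the range of iEF except for HOXD13 in DAF-mut9 replicate 3, at 13.4 CPM against 13.7 in the lowest iEF library.

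The 95% intervals show how large a change could have been missed. For HOXD13 they ran from -0.39 to 0.10 in del22, -0.20 to 0.29 in DAF and -0.40 to 0.09 in DAF-mut9, on the log2 scale against iEF. For HOXD9 they ran from -0.0022 to 0.79, 0.01 to 0.81 and -0.06 to 0.73 in the same order, with levels of 6.77, 7.13 and 6.26, then 6.63, 5.64 and 7.82, then 6.55, 6.72 and 6.06 CPM. HOXD3 had 4.85, 4.77 and 6.31 CPM in del22, 5.08, 4.64 and 4.85 in DAF and 5.75, 3.76 and 3.96 in DAF-mut9, and its largest change was 0.47 ± 0.23 in del22 (adjusted p-value 0.354, edgeR). HOXD10 stayed between 24.9 and 31.3 CPM and HOXD1 between 0.247 and 0.663 over these 9 libraries. In del22 the intervals were -1.20 to 0.34 for HOXD1 and -0.44 to 1.58 for HOXD12, so larger changes of these 2 genes could have been missed. The median of the 9 log2 fold changes was 0.05 in del22, 0.04 in DAF and 0.18 in DAF-mut9.

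Comparing the constructs with each other gave each change in EWS without iEF as the reference, although these comparisons share libraries. WT-EF exceeded del22, which lacks EWS, for 7 members and was lower for HOXD1, against 25.2% of all genes (10.7% higher, 14.5% lower). HOXD13 differed by 1.45 ± 0.12 and HOXD9 by 1.47 ± 0.19. The tyrosine replacement, DAF against WT-EF, was lower for 7 members and higher for HOXD1, against 24.9% of all genes (10.6% lower, 14.3% higher), with -1.27 ± 0.12 for HOXD13, -1.33 ± 0.18 for HOXD8 and 1.91 ± 0.43 for HOXD1. DAF and del22 differed for 0 of 9 members in edgeR, DESeq2 and limma, where 0.972% of all genes were called in edgeR. At an unadjusted p-value under 0.05 edgeR gave 0 members and 8.44% of all genes. The interval for HOXD13 there was -0.06 to 0.43 and for HOXD8 -0.45 to 0.30.

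The tyrosine replacement made within mut9 gave the same direction. DAF-mut9 was below mut9 for 6 members (HOXD3, HOXD8, HOXD9, HOXD10, HOXD11 and HOXD13), where 9.83% of all genes were called and 4.68% were lower. HOXD9 differed by -1.19 ± 0.19, HOXD3 by -1.11 ± 0.22, HOXD13 by -0.85 ± 0.12 and HOXD8 by -0.79 ± 0.18. In turn mut9, which lacks much of EWS, stood above the full-length DAF for 6 members (HOXD3, HOXD4, HOXD8, HOXD9, HOXD10 and HOXD13), against 6.61% of all genes (3.13% higher), with 1.12 ± 0.19 for HOXD9 and 0.82 ± 0.13 for HOXD10. A minimum of 2-fold left 2 members in each of these comparisons. Whether the replacement acted differently in mut9 than in full-length EWS/FLI was tested by the interaction, although the replaced tyrosines are not the same set in both: 0 of 9 members were called by edgeR, DESeq2 and limma (background 3.33%), and 2 had an unadjusted p-value under 0.05, against 14.6% of all genes, HOXD13 (0.42 ± 0.16, adjusted p-value 0.215, edgeR) and HOXD8 (0.54 ± 0.25, 0.327).

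Likeness across the 7 groups was measured for the 6 members with a mean of at least 1 CPM. As a description with no test, the root mean square difference of centred log2 group means was smallest between HOXD10 and HOXD11 (0.103), which share exon bases, and between HOXD3 and HOXD9 (0.113), and largest between HOXD10 and HOXD3 (0.451). The median difference to all genes with a mean of at least 1 CPM was 0.809 for HOXD3 and 0.481 for HOXD10. Among those genes, HOXD9 ranked 1 in nearness to HOXD3, and HOXD11 ranked 4 in nearness to HOXD10. The nearest member ranked 3 for HOXD9, 9 for HOXD11, 15 for HOXD13 and 22 for HOXD8. For every member but HOXD3, some genes outside the cluster were therefore nearer than any member. Over 14244 genes with a mean of at least 1 CPM, the genes outside the cluster nearest to HOXD8 were PCDHAC2 (0.0697), ADAM22 (0.0935) and CCDC181 (0.0979). Those nearest to HOXD13 were TGS1 (0.101), BMPR1AP1 (0.107) and SNHG20 (0.108), and the nearest to HOXD9 was SMAD9 (0.0684). HOXD1, HOXD4 and HOXD12 lay under 1 CPM on average and were left out. The summed CPM of the 9 genes was 204 ± 43.2 in iLuc, 179 ± 15.2 in WT-EF, 145 ± 26.1 in mut9, 80.4 ± 5.74 in DAF, 77.6 ± 5.65 in DAF-mut9, 76.4 ± 2.86 in del22 and 76.4 ± 13.3 in iEF (SD, n = 3).

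Calls among other genes of the region went both ways. The list held 20 genes, 7 of them within 300 kb of the cluster or inside it and 13 farther away, up to 2.13 Mb. The counts below pool near and far genes. Of these 19 were tested, and iLuc was higher than iEF for 6 and lower for 6, where 41.1% of all genes were called (18.7% higher, 22.4% lower). Against iEF, WT-EF was higher for 5 and lower for 4, mut9 higher for 3 and lower for 0, DAF higher for 2 and lower for 1, DAF-mut9 higher for 1, and del22 for 0 in either direction. The shares of all genes called were 28.3% in WT-EF, 14.6% in mut9, 7.42% in DAF, 3.4% in DAF-mut9 and 2.67% in del22. EVX2, a homeobox gene next to HOXD13, rose in iLuc (1.24 ± 0.32), WT-EF (2.34 ± 0.32) and mut9 (1.34 ± 0.32), and WT-EF exceeded iLuc by 1.10 ± 0.29 (adjusted p-value 0.0108, edgeR). HOXD-AS2 is antisense at HOXD8 and HOXD3 and shares exon bases with both. Against iEF it was higher in iLuc (1.30 ± 0.26) and WT-EF (1.07 ± 0.26). In mut9 it missed the threshold (0.77 ± 0.26, adjusted p-value 0.0509, edgeR). NFE2L2, the regulator of the oxidative stress response at 1.03 Mb from the cluster, was lower in iLuc than in iEF (-0.88 ± 0.20), as was WIPF1, an actin regulator at 1.41 Mb (-2.93 ± 0.23). NFE2L2 shares 5747 of its 14975 exon bases with other genes, and reads from those bases cannot be assigned with certainty. HAGLR, which shares exon bases with HOXD1 and HOXD3 and was picked after its values were seen, was lower in iLuc (-0.81 ± 0.14) and higher in DAF (0.60 ± 0.14).

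**Figure D4:**
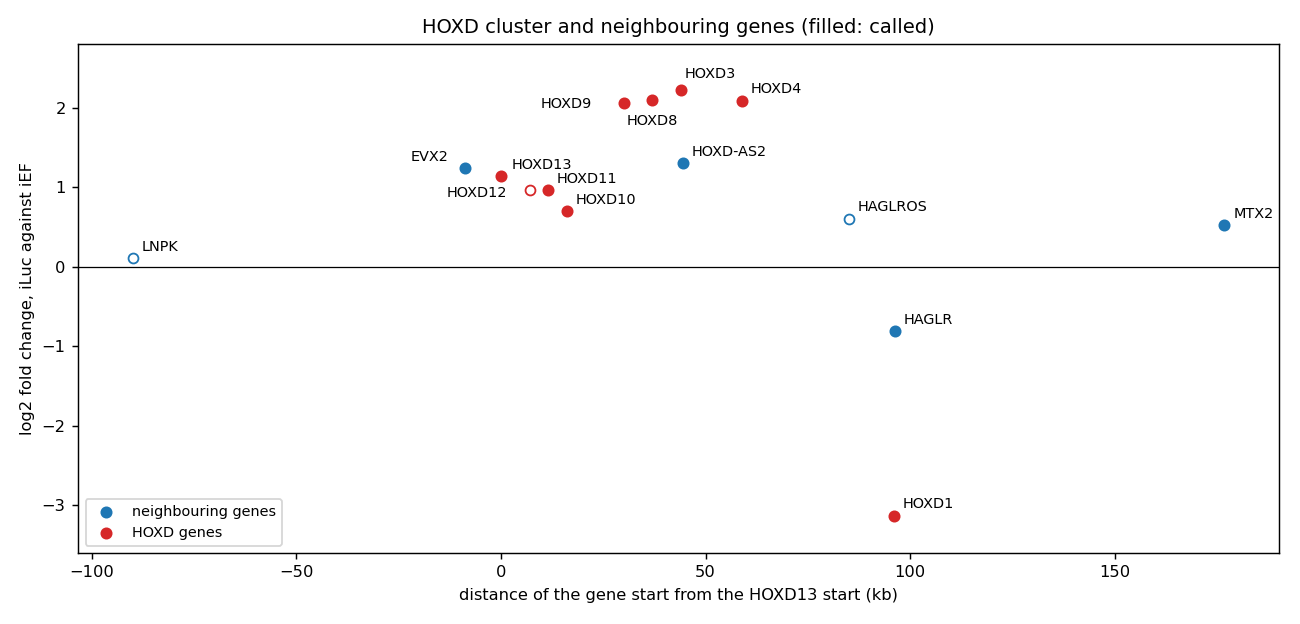
Log2 fold change of iLuc against iEF (y axis) for genes within 300 kb of the HOXD13 start (x axis, distance in kb), with HOXD genes and their neighbours marked. HOXD1 is below 0 at the anterior end, and the other HOXD genes are above 0.

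Calls in the HOXC cluster went in both directions, while most HOXB genes called in iLuc and WT-EF were lower than in iEF. Of the 11 HOXA genes only HOXA10 was tested, it was not called in any group against iEF, and the highest HOXA count in any library was 9. Between iLuc and iEF, 41.1% of all genes were called (18.7% higher, 22.4% lower). Among 9 tested HOXB genes, iLuc was higher than iEF for 1 and lower for 3, with HOXB13 at 1.63 ± 0.19, HOXB2 at -1.01 ± 0.19, HOXB6 at -0.76 ± 0.16 and HOXB3 at -0.49 ± 0.14. Among 9 HOXC genes 4 were higher and 2 lower, with HOXC13 at 1.37 ± 0.22, HOXC11 at 0.80 ± 0.24, HOXC10 at 0.55 ± 0.18 and HOXC6 at -0.55 ± 0.15. In WT-EF 1 HOXB gene was higher and 6 lower, in mut9 1 and 2, in del22 2 and 0, in DAF 1 and 0, and in DAF-mut9 1 and 0. In the same groups the HOXC genes had 1 higher and 0 lower in WT-EF, 0 and 1 in mut9, 1 and 0 in DAF, and none called in del22 and DAF-mut9. Of all genes, 28.3% were called in WT-EF (11.4% higher, 16.9% lower), 14.6% in mut9, 2.67% in del22, 7.42% in DAF and 3.4% in DAF-mut9. Between constructs, HOXB calls went mostly opposite to those of HOXD. WT-EF against del22 had 1 HOXB gene higher and 8 lower (14.5% of all genes lower). In DAF against WT-EF, 7 were higher and 0 lower (14.3% of all genes higher). In DAF-mut9 against mut9, 6 were higher and 0 lower (5.15% of all genes higher). In mut9 against DAF, 0 were higher and 3 lower (3.48% of all genes lower). The difference between clusters was not itself tested.

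**Figure D5:**
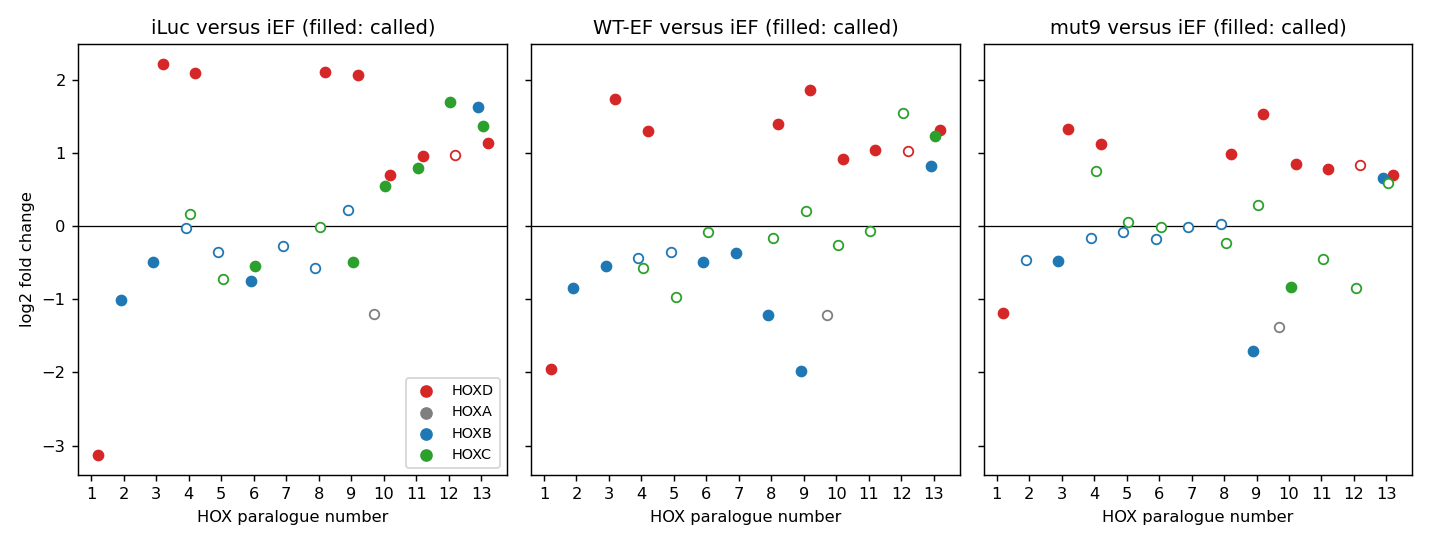
Log2 fold change (y axis) against iEF by paralogue number (x axis) for the HOXA, HOXB, HOXC and HOXD genes tested, in iLuc, WT-EF and mut9. The HOXD genes with paralogue numbers 3 to 13 lie above 0 in all 3.

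HOX proteins bind DNA with partners of the TALE class, the PBX and MEIS homeodomain proteins. Of 9 tested TALE genes, 3 were higher and 3 lower in iLuc than in iEF, where 41.1% of all genes were called. MEIS1 (2.37 ± 0.19) was higher in iLuc, while PBX3 (-2.49 ± 0.30) and MEIS2 (-1.51 ± 0.16) were lower. In WT-EF 2 were higher and 4 lower, in mut9 2 and 2, in DAF 1 and 1, in DAF-mut9 0 and 1, and in del22 0 and 1. The shares of all genes called in the same order were 28.3%, 14.6%, 7.42%, 3.4% and 2.67%.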

How the data were processed

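RNA from A673 cells was sequenced in 7 groups of 3 (library sizes above). The authors aligned the reads with STAR (version 2.5.1b per the submitters' processing notes, while the study's methods name another release) to hg19 and deposited whole-number read counts per gene from htseq-count in its intersection-strict mode. They also deposited counts adjusted for replicate set with ComBat, which are no longer whole and were treated as signal values. Their columns of comparisons, with fold changes and p-values, were not used. The strand setting and annotation release are not given in the sources used here.

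Counts were tested with edgeR 4.0.16 (R 4.3.3, quasi-likelihood, TMM, replicate set as a block, as the study adjusted for it) in 1 fit of all 21 libraries and all 30549 genes with a mean of at least 1 count. Benjamini-Hochberg adjusted p-values under 0.05 were called. Replicates are separate knockdown experiments in 1 line. Their numbers were taken to pair the libraries as sets, because the study's methods adjusted each set of replicates. The methods do not say which numbers form a set. Same-numbered libraries of different groups had deviations correlated by -0.126 to 0.541 (median 0.158), with 42 of 63 pairs over 0.1. The median for libraries of different numbers and groups was -0.0906. No 2 replicates agreed within counting noise. Alternatives were no block, DESeq2 1.42.0, RLE scaling, no filter, edgeR's filterByExpr, only the groups compared, the ComBat-adjusted values in limma 3.58.1 on log2(value + 1), a 2-fold minimum, and leaving out each library. Gene coordinates came from GENCODE 44 lifted to GRCh37. Named genes were all 9 members and, per list, up to 4 genes with the largest absolute change among those called between iLuc and iEF with a mean of at least 1 CPM; some genes that the rules name are not reported here. Members and lists were chosen with earlier results of these data known. The tests were tried on simulated data.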

Additional observations from a re-analysis of the deposited data

Results flagged for a closer look

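The interaction, in which the tyrosine replacement within mut9 was set against the replacement within full-length EWS/FLI, called 0 of the 9 HOXD genes and 1 of the 19 other genes tested in the region, against 3.33% of all genes. That gene was WIPF1, an actin regulator 1.41 Mb from the cluster, which had 1.11, 1.52 and 1.42 CPM in WT-EF, 3.63, 5.61 and 5.50 in DAF, 2.36, 2.41 and 4.07 in mut9 and 3.70, 5.08 and 5.61 in DAF-mut9. DAF differed from WT-EF by 1.85 ± 0.21 and DAF-mut9 from mut9 by 0.71 ± 0.20 on the log2 scale, so that the effect of the replacement differed by -1.14 ± 0.28 (SE, adjusted p-value 0.0264, edgeR). In iEF, WIPF1 had 3.43, 3.97 and 5.13 CPM, and mut9 stood above WT-EF by 1.11 ± 0.21. The replaced tyrosines are not the same set in both constructs. A count of 1 among 19 is near the share of all genes, and the cause was not tested.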

How the results depend on the processing

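The numbers of HOXD genes called changed by no more than 1.5 times in 188 of 202 alternative counts. The exceptions follow. Requiring at least a 2-fold change left 4 genes for mut9 against iEF, 0 for WT-EF against iLuc, 0 for mut9 against WT-EF, 2 for mut9 against DAF and 2 for DAF-mut9 against mut9. For WT-EF against iLuc, DESeq2 called 2 and a fit of only the groups compared called 2, both adding HOXD4. For mut9 against WT-EF, no low-count filter gave 2 (adding HOXD8) and a fit of only the groups compared gave 4 (adding HOXD9, HOXD8 and HOXD3). Leaving out single libraries gave 5 to 7 genes for mut9 against iEF and 0 to 2 genes for WT-EF against iLuc, with 0 without iLuc replicate 1 and 2 without iLuc replicate 3, which added HOXD3. Without the replicate block, mut9 against iEF had 7 genes called, losing HOXD1 (adjusted p-value 0.0642, edgeR), and the other counts were equal to those with the block. Changes that were never called turned sign when single libraries were left out. In del22 against iEF the log2 fold change ran from -0.024 to 0.24 for HOXD8 and from -0.44 to 0.41 for HOXD4. In DAF it ran from -0.76 to 0.098 for HOXD12, from -0.065 to 0.45 for HOXD11, from -0.095 to 0.18 for HOXD10, from -0.13 to 0.22 for HOXD8 and from -0.30 to 0.23 for HOXD1. In DAF-mut9 it ran from -0.10 to 0.57 for HOXD12, from -0.13 to 0.13 for HOXD11 (-0.00343 with no low-count filter), from -0.096 to 0.049 for HOXD10, from -0.24 to 0.39 for HOXD4 and from -0.0093 to 0.45 for HOXD3. The causes of these changes were not tested. With 3 libraries a group, and 1 to 30 counts per library for HOXD1, 3 to 21 for HOXD12 and 6 to 89 for HOXD4, changes of these genes could be missed.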

Other observations

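The ratio of HOXD8 to HOXD10 counts within a library does not depend on how libraries are scaled to each other, and it was computed after the levels were seen, as a description with no test. It was 2.01, 1.33 and 1.11 in the iLuc replicates and 0.867, 0.721 and 0.733 in WT-EF, so every iLuc library lay above every WT-EF library. In mut9 it was 0.621, 0.647 and 0.550, in iEF 0.540, 0.549 and 0.570 and in DAF 0.566, 0.559 and 0.573. It was 0.631, 0.660 and 0.662 in del22 and 0.667, 0.660 and 0.629 in DAF-mut9.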
